A study of Mus musculus with 4 samples.

Results

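Genistein is a plant isoflavone whose ring structure resembles estradiol, and the genes examined here encode receptors on which isoflavones are known or proposed to act, together with coregulators those receptors recruit. The set holds 10 genes, taken by symbol from the 47937 gene entries of the deposited counts. They are the estrogen receptors Esr1 and Esr2, the membrane estrogen receptor Gper1, the estrogen-related receptor Esrra, the peroxisome proliferator-activated receptors Ppara, Ppard and Pparg, the coactivators Ncoa1 and Ncoa3, and the estrogen-responsive corepressor Nrip1. All 10 symbols were matched to an entry.

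Total RNA came from a line of mouse embryonic fibroblasts (MEF cells), a culture of connective tissue cells. The untreated group was wild-type MEF cells without genistein, and the genistein group was the same line kept with genistein at 50 µM over 24 h, for which the labels repeat the treatment in place of a genotype. The labels did not say whether the untreated libraries received solvent, and the study describes untreated cells in other assays as having DMSO only. Each group had 2 libraries, and all were grown in the same high-glucose medium with serum. The labels did not say whether the 2 libraries of a group came from separate cultures, so p-values measure only the spread between libraries, which may be technical. Library totals lay between 28591958 and 31464284 counts.

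Nuclear receptors are transcription factors that bind a small lipid-soluble ligand. Estrogen receptors then pair with each other on DNA, whereas a PPAR pairs with a retinoid X receptor (RXR). A bound agonist draws in coactivators of the p160 family, such as the products of Ncoa1 and Ncoa3, which bring histone acetyltransferases to the gene. The product of Nrip1 docks on the same receptor surface and recruits corepressors, and its gene is itself switched on by estrogen in hormone-responsive cells. In fibroblasts and adipocyte precursors, PPARs are best known for control of fatty acid oxidation and fat storage.

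The MEF label was checked against fibroblast markers. Of 10 such genes 8 passed the filter on low counts, and the list summed to 428162 and 439977 normalised counts untreated and to 418066 and 408903 with genistein. Thy1 was at 0 in every library and Lum did not exceed 9.99 normalised counts. Normalised counts are raw counts brought to the mean effective library size of the 4 libraries. The 6 adipocyte markers summed to at most 1.01 in any library, with Adipoq and Retn near 0 and the other 4 at 0. The 6 macrophage and blood cell markers summed to 209.8 and 194 untreated and 561 and 576 with genistein, mostly through Csf1r and Cd68. Lyz2 had 0 and 2.12 normalised counts untreated and 15 and 6.07 with genistein, while Ptprc, Adgre1 and Tyrobp were at or near 0. The 5 endothelial markers summed to 19 and 26.5 and to 76 and 85, mostly Kdr, and the 6 epithelial markers to 452 and 462 and to 137 and 132, mostly Krt8, with Epcam at 0. The part of these markers in the results below was not tested. In a bulk sample, fewer cells with a transcript and less transcript per cell cannot be told apart.

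The promoters of Nrip1, Ppard and Ncoa1, which rose with genistein, and of Esrra, which did not pass the test, are shown first, since nuclear receptors act through short DNA motifs. Each stretch is reference sequence from the RefSeq promoter table on GRCm38.p6, read 5′ to 3′ on the gene's strand. It starts 250 bases before the annotated transcription start and ends at that start or at the first exon base of the gene in GENCODE. Capitals mark the GC box (GGGCGG, or CCGCCC on the other strand) and would mark the receptor hexamer (AGGTCA, or TGACCT), which none of these 5 stretches holds. Nrip1 has 2 such starts, of which start 2 lies inside the annotated gene, and both are given.
Nrip1 start 1, chr16:76373828-76374077, minus strand: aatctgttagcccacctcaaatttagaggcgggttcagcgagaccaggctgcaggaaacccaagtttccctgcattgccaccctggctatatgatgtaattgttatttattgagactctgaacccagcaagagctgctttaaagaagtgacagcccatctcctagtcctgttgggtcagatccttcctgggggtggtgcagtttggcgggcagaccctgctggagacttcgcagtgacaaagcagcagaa
Nrip1 start 2, chr16:76373050-76373299, minus strand: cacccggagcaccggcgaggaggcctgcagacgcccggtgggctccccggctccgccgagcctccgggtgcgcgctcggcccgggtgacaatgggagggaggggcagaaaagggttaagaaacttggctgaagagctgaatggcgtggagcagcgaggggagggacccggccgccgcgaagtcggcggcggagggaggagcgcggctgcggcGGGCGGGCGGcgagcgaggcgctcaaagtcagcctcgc
Ppard, chr17:28232504-28232699, plus strand: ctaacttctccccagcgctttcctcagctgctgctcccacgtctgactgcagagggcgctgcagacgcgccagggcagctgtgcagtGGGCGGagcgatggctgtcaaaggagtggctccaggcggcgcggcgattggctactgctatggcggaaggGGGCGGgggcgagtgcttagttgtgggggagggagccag
Ncoa1, chr12:4477183-4477432, minus strand: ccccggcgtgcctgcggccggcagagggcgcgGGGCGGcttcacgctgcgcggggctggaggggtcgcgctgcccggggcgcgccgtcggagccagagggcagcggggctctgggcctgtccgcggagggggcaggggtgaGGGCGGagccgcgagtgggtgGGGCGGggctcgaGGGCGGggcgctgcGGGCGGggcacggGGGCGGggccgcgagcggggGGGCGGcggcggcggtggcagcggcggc
Esrra, chr19:6921814-6922058, minus strand: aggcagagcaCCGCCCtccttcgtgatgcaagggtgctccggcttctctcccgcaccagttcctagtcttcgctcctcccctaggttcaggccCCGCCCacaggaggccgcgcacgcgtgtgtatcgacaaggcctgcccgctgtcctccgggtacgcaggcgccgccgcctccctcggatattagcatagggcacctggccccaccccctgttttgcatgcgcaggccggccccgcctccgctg

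The table held 13 windows of 300 bases, 250 before and 50 after a start, for 9 of the 10 genes. Ncoa3 had no entry. The hexamer AGGTCA occurred on either strand in 2 of the 13 windows, both of Pparg, against 16.3% of all 32851 windows. A full estrogen response element (the hexamer followed after 3 bases by its reverse complement), a PPAR response element (the hexamer repeated after 1 base) and the estrogen-related receptor element (TCAAGGTCA, which contains the hexamer) were each found in 0 of the 13. These longer motifs were rare among all windows, at 0.0548%, 0.0396% and 0.423%. The GC box was present in 8 of the 13 windows, against 35.7% of all windows. Ncoa1 had 7 matches, Ppard 3, of which 2 stand in the stretch shown, Esrra 2 and Nrip1 start 2 had 2 that overlap, whereas Nrip1 start 1 had 0. The Ncoa1 window was 84.7% G and C, above 99.8% of all windows, and the Nrip1 start 1 window was 52.7%, equal to the median of 52.7%. A match of letters is a description and not a binding site. Only exact letters within these windows were searched, so a lack of matches does not show that a gene lacks such an element.

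**Figure D1:**
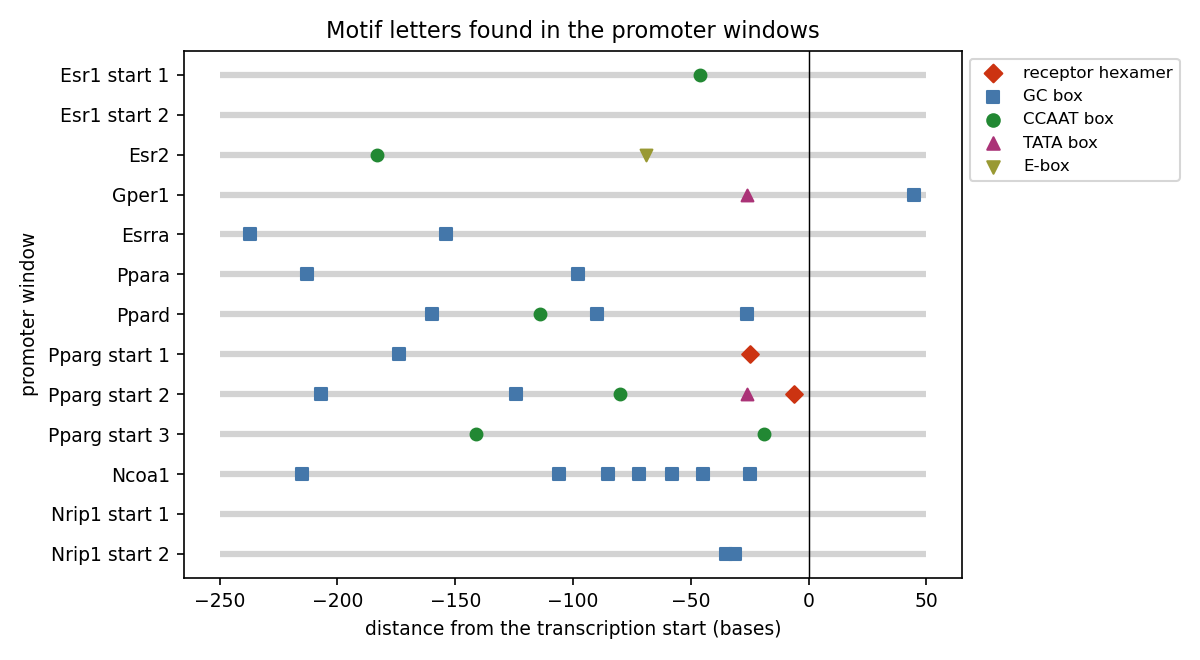
Motif letters in the 13 promoter windows, with distance from the transcription start in bases on the horizontal axis and 1 line per annotated start. Symbols mark matches on either strand; the receptor hexamer appears in 2 windows, both of Pparg, and the GC box in 8.

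The first question was which receptors the cells transcribed at a level that these libraries can measure. The estrogen receptors were nearly silent. Esr1 (ENSMUSG00000019768, chr10:4611593-5005614), the classical estrogen receptor alpha, had 3 and 4 raw counts untreated and 10 and 5 with genistein. Esr2 (ENSMUSG00000021055, chr12:76120419-76177259), estrogen receptor beta and the receptor with the higher affinity for genistein, had 0 and 0 counts untreated and 0 and 2 with genistein. A count of 0 allows up to 3 counts in a library. Pparg (ENSMUSG00000000440, chr6:115360951-115490399), the master regulator of fat cell formation, had 10 and 6 counts untreated and 7 and 8 with genistein.

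These 3 genes had too few reads for a test, as no library held more than 10 counts of any of them. Summed over the 2 libraries of a group, Esr1 had 7 counts untreated (95% exact Poisson interval 2.81 to 14.4) and 15 with genistein (8.40 to 24.7). The intervals overlapped. Pparg had 16 (9.15 to 26) and 15 (8.40 to 24.7), which also overlapped. For Esr2, 0 (up to 3.69) and 2 (0.242 to 7.22) gave no usable ratio. These intervals cover counting error only and leave out the spread between libraries. They may be too narrow, since reads copied by PCR and lacking molecular identifiers cannot be taken as separate molecules. In a fit with no filter on low counts, the log2 fold change was 0.97 for Esr1 (SE 0.68, adjusted p = 0.27) and -0.19 for Pparg (SE 0.53, adjusted p = 0.79), from the edgeR quasi-likelihood test, Benjamini-Hochberg adjusted. A change was not detectable at this depth.

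Another 2 receptors passed the filter with low counts, a mean of 100 normalised counts or less. Gper1 (ENSMUSG00000053647, chr5:139423151-139427800), a G protein-coupled receptor reported to bind estrogens at the membrane, had 13 and 12 raw counts untreated and 15 and 13 with genistein. The groups were close, with normalised counts of 13 and 12.7 against 14.1 and 13.2. They did not overlap, in the higher direction, as for 40.7% of all genes tested. Ppara (ENSMUSG00000022383, chr15:85734983-85802819), the main PPAR of liver, had 19 and 21 counts untreated and 12 and 19 with genistein. In normalised counts genistein 1, at 11.3, was the low library, and genistein 2, at 19.2, lay within the untreated range of 19 to 22.2. Summed over a group, Ppara had 40 counts untreated (95% exact Poisson interval 28.6 to 54.5) and 31 with genistein (21.1 to 44), and Gper1 had 25 (16.2 to 36.9) and 28 (18.6 to 40.5).

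The remaining 5 genes exceeded a mean of 100 normalised counts. To set genes beside each other, counts were scaled for library size and for the exon length of the annotation, as RPKM. In untreated cells the highest level was that of Ncoa3, at 5.83 ± 0.319 RPKM (SD, n = 2), followed by Esrra at 5.05 ± 0.0968, Nrip1 at 2.56 ± 0.126, Ppard at 1.47 ± 0.0591 and Ncoa1 at 1.16 ± 0.118. Ppara, at 0.180 ± 0.0200, and Gper1, at 0.169 ± 0.00263, were the next pair, and their library values overlapped. Pparg stood at 0.0925 ± 0.0291 and Esr1 at 0.00885 ± 0.00214, and Esr2 was at 0, where a floor of 3 counts corresponds to 0.0297 RPKM. Esr1 and Esr2 cannot be ordered, since the values of Esr1 lie below that floor. Between the other neighbours the library values did not overlap, with only 2 libraries behind each.

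The median level of the 16157 tested genes with a known length was 4.84 RPKM in untreated cells. Ncoa3 and Esrra lay just above it, with 54.7% and 51.0% of those genes lower. Nrip1, Ppard and Ncoa1 lay in the lower range, with 37.1%, 28.0% and 24.6% of genes below them. Ppara and Gper1 exceeded only 6.37% and 6.05%. Among the PPAR genes, Ppard was therefore the most abundant per length in every library, at 1.52 and 1.43 RPKM untreated against 0.165 and 0.194 for Ppara and 0.113 and 0.0719 for Pparg. The ratio of Ppard to Ppara was 9.16 and 7.39 untreated and 28.4 and 15.7 with genistein. The ratio of Ppard to Esrra, both at levels with small counting error, was 0.304 and 0.28 untreated and 0.597 and 0.565 with genistein.

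**Figure D2:**
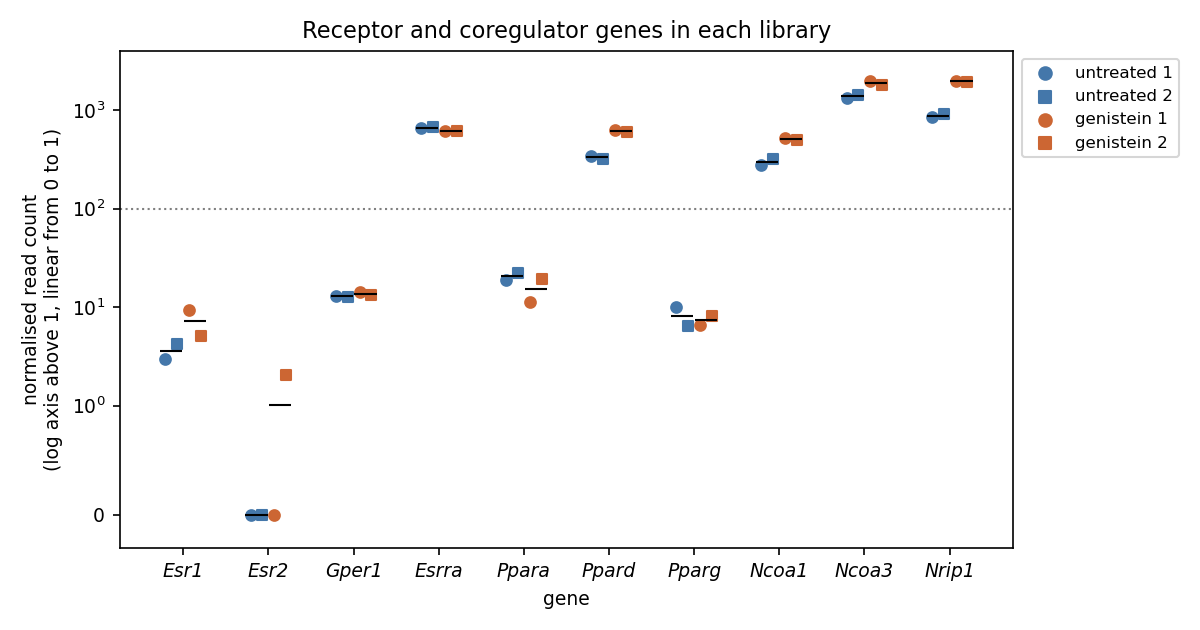
Normalised read counts of the 10 genes (vertical axis, logarithmic above 1 and linear from 0 to 1) in the 4 libraries, with short black lines at the mean of each group and a dotted line at 100. Nrip1, Ppard, Ncoa1 and Ncoa3 lie above their untreated values in both genistein libraries, as 40.7% of all genes tested do. Esr1, Esr2, Gper1, Ppara and Pparg lie below 100 in all libraries.

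The second question was whether genistein changed these transcripts. Of the 7 genes tested, 4 rose and 0 fell at an adjusted p under 0.05 (edgeR's quasi-likelihood test over all genes and repeats). No further gene fell at an unadjusted p under 0.05. DESeq2 also gave 4 and 0, where it called 4050 of all genes higher and 5309 lower. With edgeR, 71.7% of all 16240 genes tested passed at the same threshold, 33.5% with a rise and 38.2% with a fall. A called change was therefore common in these cells. Of the 5 members with a mean normalised count over 100, 4 rose and 0 fell, against 33.0% and 47.2% of the 11642 genes at that level. The median log2 fold change was 0.46 over the 7 genes and -0.033 over all genes tested. At the thresholds of the study's methods, which also ask for more than 100 normalised counts on average and a change beyond 1 on the log2 scale, 1 of the 7 tested genes was higher, against 3.92% of all genes tested. That gene was Nrip1. None was lower, against 4.16%.

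Nrip1 (ENSMUSG00000048490, chr16:76287400-76373827) changed the most of the 7. Its normalised count was 847 and 908 untreated and 1993 and 1923 with genistein. The groups were far apart, with group means of 878 ± 43.3 and 1958 ± 49.1 (SD, n = 2). The log2 fold change was 1.16 (SE 0.05, adjusted p = 5.5e-12, edgeR's quasi-likelihood test), a rise to 2.23 times the untreated level with a 95% interval of 2.07 to 2.40. Of all genes tested, 92.2% had a smaller log2 fold change, and of those with a mean over 100, 96.2%. Per length, Nrip1 moved from place 3 to place 2 in the set, at 5.71 ± 0.143 RPKM, above Esrra at 4.66 ± 0.00536 (SD, n = 2).

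Ppard (ENSMUSG00000002250, chr17:28232700-28301474) encodes the PPAR that most tissues share. Its normalised count was 341 and 322 untreated and 625 and 592 with genistein. The groups did not overlap, in the higher direction, as for 40.7% of all genes tested. The log2 fold change was 0.88 (SE 0.072, adjusted p = 1.4e-08, edgeR), or 1.84 times the untreated level (95% interval 1.65 to 2.04). Genes with a smaller log2 fold change made up 87.6% of those tested and 92.8% of those with a mean over 100. Per length, Ppard kept place 4 in the set, at 2.78 and 2.63 RPKM with genistein.

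Both coactivators rose as well, with smaller fold changes. Ncoa1 (ENSMUSG00000020647, chr12:4247362-4477182), the founding member of the p160 family, had normalised counts of 276 and 319 untreated and 519 and 498 with genistein. Its log2 fold change was 0.78 (SE 0.083, adjusted p = 3.2e-07, edgeR), or 1.72 times (95% interval 1.52 to 1.94). Ncoa3 (ENSMUSG00000027678, chr2:165992636-166073242), a p160 coactivator known for amplification in breast cancer, had 1324 and 1430.3 untreated and 1982 and 1797 with genistein. Its log2 fold change was 0.46 (SE 0.054, adjusted p = 1e-06, edgeR), or 1.37 times (95% interval 1.27 to 1.49). Genes with a smaller log2 fold change made up 85.4% of those tested for Ncoa1 and 75.6% for Ncoa3. For both genes the lower genistein library stood above the higher untreated one, as for 40.7% of all genes tested. The 95% interval of Ncoa3 ended below those of Ppard, Ncoa1 and Nrip1. The differences between genes were not tested.

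Esrra, Gper1 and Ppara did not pass. Esrra (ENSMUSG00000024955, chr19:6910977-6921813), an orphan receptor that drives mitochondrial genes with no known steroid ligand, had 654 and 672 normalised counts untreated and 611 and 612 with genistein. Its values did not overlap between groups, in the lower direction, as for 44.6% of all genes tested. The log2 fold change was -0.12 (SE 0.059, adjusted p = 0.09, edgeR), with a 95% interval of -0.24 to 0.01. This interval leaves room for a small decrease and none for a change of the size seen in Nrip1 or Ppard. For Gper1 the value was 0.084 (95% interval -0.69 to 0.86, adjusted p = 0.85, edgeR), and for Ppara it was -0.44 (95% interval -1.17 to 0.29, adjusted p = 0.26, edgeR). Both intervals are too wide to exclude changes of the size of Ncoa1 in at least 1 direction. The Ppara value rested on single libraries, as it was -0.092 without genistein 1 and -0.86 without genistein 2.

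**Figure D3:**
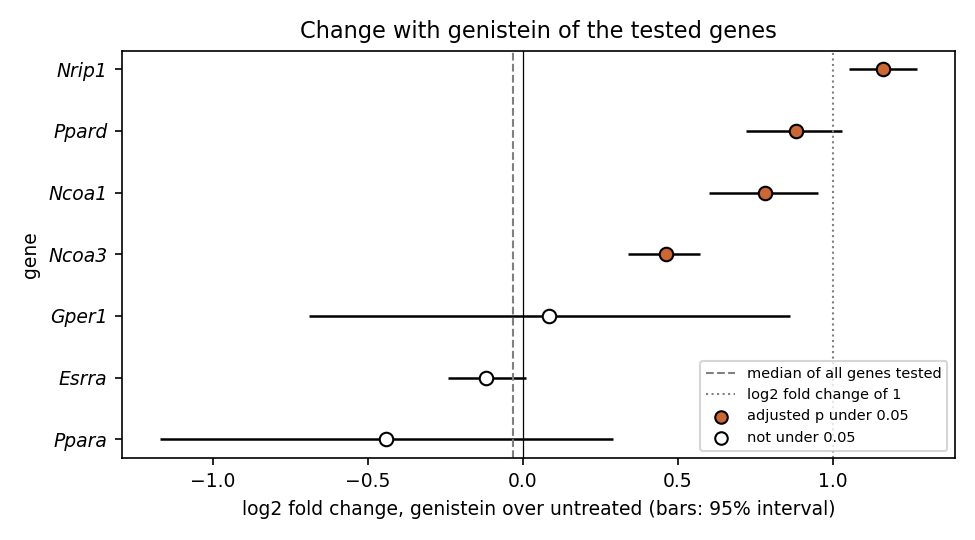
Log2 fold change of genistein over untreated for the 7 tested genes (points), with 95% intervals as bars and filled points at an adjusted p under 0.05. Nrip1, Ppard, Ncoa1 and Ncoa3 lie between 0.46 and 1.16 with intervals above 0, and the wide bars of Gper1 and Ppara come from 12 to 21 counts per library.

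Exon overlaps with other genes were short, and since the strand option of the counting was not stated, reads in them cannot be given to 1 gene. Exons of Ncoa3 share 154 bases with Sulf2 on the opposite strand, which is 1.95% of its exon length. Exons of Esrra share 73 bases with Trmt112, also on the opposite strand, and 91 bases with Mir6990. Of Ncoa1, 68 bases overlap an antisense gene. No exon of Nrip1 or Ppard overlaps another gene.

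Partner and related receptors were compared next, from a list of 11. Only 4 passed the filter, and among the others Esrrb, Esrrg, Rxrg, the progesterone receptor Pgr, Nr0b1 and Nr0b2 were at or near 0 in all libraries. Of the 4, all with a mean over 100, 1 rose and 3 fell at an adjusted p under 0.05, against 33.0% and 47.2% of all genes at that level. Rxra, an RXR partner of PPARs, had normalised counts of 2305 and 2298 untreated and 2479 and 2446 with genistein. Its rise was 0.10 on the log2 scale (edgeR adjusted p = 0.026). This call was lost in 7 of the 10 alternative fits. Rxrb, which can replace it, fell from 919 and 996 to 679.8 and 653 (log2 fold change -0.52, adjusted p = 1e-06, edgeR). The orphan receptors Nr2f1 and Nr2f2, which bind the same hexamers, fell by 1.45 and 0.40 on the log2 scale (adjusted p = 2.8e-08 and 1.7e-05, edgeR).

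Among 25 other coregulators, all tested, 9 rose and 13 fell, or 36.0% and 52.0% of the list, against 33.5% and 38.2% of all genes tested. Of the 24 with a mean over 100, 8 rose and 13 fell, where the shares over all such genes were 33.0% and 47.2%. The 9 include Ppargc1a, a low-count gene described with the last list. The acetyltransferase gene Kat2b had normalised counts of 1170 on average untreated and 1901 with genistein, a rise of 0.70 on the log2 scale (edgeR adjusted p = 6e-10), and Ncoa4 rose by 0.56 (edgeR adjusted p = 1.6e-07). The remaining p160 coactivator, Ncoa2, rose by 0.24 (adjusted p = 6e-05, edgeR). All 3 members of that family therefore rose, at 0.78 for Ncoa1, 0.24 for Ncoa2 and 0.46 for Ncoa3. The largest falls were those of Prmt1 and Carm1, arginine methyltransferases that p160 proteins recruit, at -1.07 and -1.04, and of Phb2, a repressor of estrogen receptor activity, at -0.94 (adjusted p = 6.3e-13, 2e-11 and 6.3e-13, edgeR). Ncor1, Crebbp and Gps2 were at 0.039, 0.087 and -0.061 and did not pass, although Ncor1 and Crebbp did with library totals alone (adjusted p = 0.027 and 0.0055, edgeR). The median of the list was -0.23.

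Estrogen-responsive genes were examined next, from a list of 18 known mainly from breast and uterus. Of the 14 tested, 3 rose and 7 fell (21.4% and 50.0%, against 33.5% and 38.2% of all genes), with a median log2 fold change of -0.25. Of the 12 with a mean over 100, 2 rose and 7 fell, against 33.0% and 47.2% of all genes at that level. Greb1, Pdzk1, Ltf and Tff1, which are among the most hormone-dependent of the list, were at or near 0 and did not exceed 1.06 normalised counts in any library. Ctsd, a lysosomal protease, rose from 4793 and 4647 to 12873 and 12890.3 normalised counts, or 1.45 on the log2 scale (SE 0.042, adjusted p = 4.2e-14, edgeR). Igfbp4 rose by 0.29, and Foxa1, at 4.99 and 12.7 untreated and 18.8 and 32.4 with genistein, passed the filter only through the genistein libraries. The largest falls were those of Fkbp4, a chaperone partner of steroid receptors, at -1.63, of Myc at -1.12 and of the ubiquitin ligase gene Siah2 at -1.07 (adjusted p = 2e-15, 4.8e-12 and 4.5e-08, edgeR). Bcl2, Rara, Gata3 and Areg did not pass, with values between -0.091 and 0.23.

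**Figure D4:**
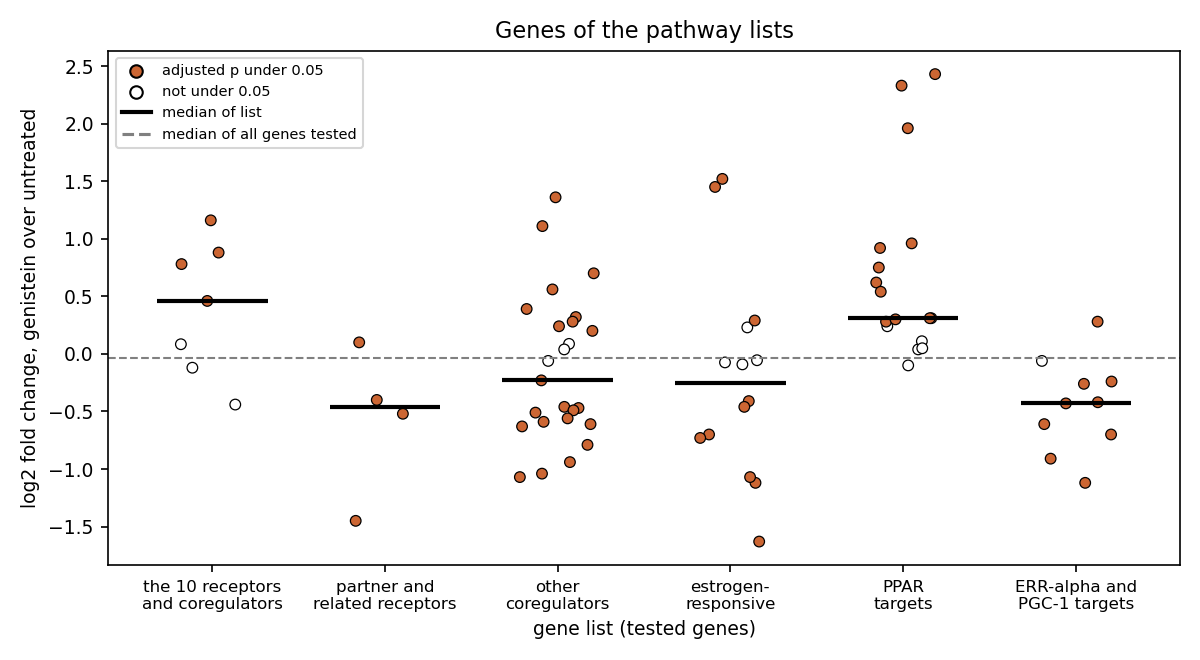
Log2 fold change of genistein over untreated for the tested genes of each list (points, filled at an adjusted p under 0.05), with a black line at the median of the list and a dashed line at the median of all genes tested, -0.033. The PPAR targets have a median of 0.31 and no filled point below 0, whereas the medians of the partner receptors, other coregulators, estrogen-responsive genes and ERR-alpha targets lie between -0.46 and -0.23.

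Most of the PPAR targets that passed the filter rose, from a list written with earlier results of these data known. Of 28 listed genes, 17 were tested, and 12 rose and 0 fell at an adjusted p under 0.05 (edgeR). These were 70.6% and 0% of those tested, against 33.5% and 38.2% of all genes tested. The 12 include Ehhadh, which passed the filter only through the genistein libraries. No gene of the list fell at an unadjusted p under 0.05. DESeq2 gave 11 and 0, where it called 4050 of all genes higher and 5309 lower. Among the 14 with a mean normalised count over 100, 10 rose and 0 fell, against 33.0% and 47.2% of all genes at that level. The median log2 fold change was 0.31 over the tested genes. It stayed between 0.28 and 0.45 over the 10 alternative fits.

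Cpt1a, the rate-limiting enzyme of mitochondrial fatty acid uptake, had normalised counts of 1029.9 and 1069 untreated and 5286 and 5253 with genistein. Its log2 fold change was 2.33 (SE 0.038, adjusted p = 3.6e-17, edgeR). Vnn1, a pantetheinase, rose from 65.9 and 56.1 to 329 and 330 normalised counts (log2 fold change 2.43, SE 0.12, adjusted p = 3.3e-11, edgeR). Lpl, the lipoprotein lipase, rose from 2327 and 2339.7 to 4630.4 and 4452 (log2 fold change 0.96, adjusted p = 8.9e-13, edgeR). In all 3 genes the libraries of a group lay close together and the groups far apart.

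Genes of peroxisomal and mitochondrial beta-oxidation were among the others that rose. Ech1, an isomerase of unsaturated fatty acids, rose by 0.54, Decr1 by 0.31, Acaa1a by 0.30 and Acadm by 0.28. The fatty acid transporter gene Slc27a1 rose by 0.75 and Plin2, a lipid droplet coat protein gene, by 0.31. Ehhadh and Plin4 rose too, by 1.96 and 0.92, with untreated means of only 5.7 and 22.5 normalised counts. Ehhadh passed the filter only through the genistein libraries.

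Other classical targets did not pass. Pdk4 and Angptl4, which respond to PPAR agonists in many cell types, had log2 fold changes of 0.039 (adjusted p = 0.63) and 0.24 (adjusted p = 0.40, edgeR). Pdk4 stood at 424 and 425 normalised counts untreated and 433 and 438 with genistein, a narrow range for counts of this size. Acsl1, Hadha and Pex11a did not pass, at 0.11, 0.049 and -0.10, although the first 2 did with library totals alone (adjusted p = 0.036 and 0.013, edgeR). Another 11 genes, among them Fabp4, Cd36, Cyp4a10 and Cyp4a14, had too few reads, and 5 of the list were at 0 in every library. Fgf21, a secreted target, had 0 and 1.06 normalised counts untreated and 8.44 and 3.04 with genistein and passed only in the fit with no filter. Adipocyte markers were at or near 0, as given above.

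**Figure D5:**
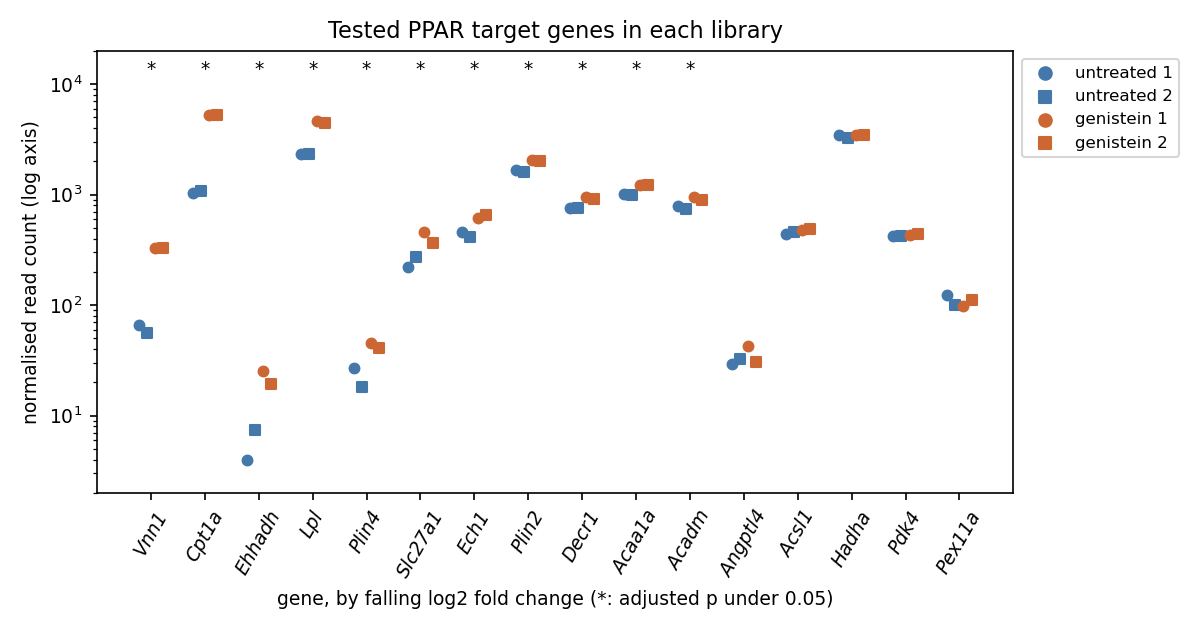
Normalised read counts (logarithmic axis) of tested PPAR targets in the 4 libraries, ordered by falling log2 fold change, with an asterisk at an adjusted p under 0.05. Vnn1 and Cpt1a have the widest gap between untreated and genistein libraries among genes with a mean over 100, and in Pdk4 the 4 libraries lie between 424 and 438.

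Targets of Esrra and its coactivators of the PGC-1 family were the last list. Of 10 genes, all with a mean over 100, 1 rose and 8 fell, against 33.0% and 47.2% of all genes at that level, and the median log2 fold change was -0.43. Cycs, the cytochrome c gene, Idh3a, a subunit of isocitrate dehydrogenase, and Atp5b, a subunit of ATP synthase, had the largest falls, at -1.12, -0.91 and -0.70 (adjusted p = 1.1e-11, 6e-12 and 5e-10, edgeR). Acadm, which is also a PPAR target and stands in both lists, was the 1 that rose. Esrra itself had a log2 fold change of -0.12 and had not passed. Ppargc1b and Pprc1, 2 of the 3 coactivators of this family, fell by 0.59 and 0.79. Ppargc1a, the other, had only 6.99 and 6.35 normalised counts untreated and 18.8 and 10.1 with genistein and passed the filter only through the genistein libraries. Its call (edgeR adjusted p = 0.04) was lost with DESeq2 (adjusted p = 0.25), without untreated 1 (edgeR adjusted p = 0.098), without untreated 2 (0.12) and without genistein 1 (0.39).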

How the data were processed

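Total RNA of 2 untreated and 2 genistein libraries was made into stranded libraries, depleted of ribosomal RNA, and sequenced as paired ends. The authors trimmed reads with Trim Galore, aligned them to mm10 with STAR and counted them over Gencode genes and repeats with TEtranscripts. The deposited values are raw counts, and the strand option was not stated. The 1 entry of 49383 that named no gene or repeat held 0.00208% to 0.00314% of counts and was left out. Symbols came from GENCODE M21 on GRCm38, the assembly of mm10, and covered 47224 gene entries. Exon lengths came from the same annotation, which is newer than that of the counts.

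Genes and repeats were fitted together with edgeR 4.0.16 in R 4.3.3, after filterByExpr by group (minimum count 10, minimum total 15) and TMM scaling, which left 17358 entries. The quasi-likelihood test compared the groups, with Benjamini-Hochberg adjustment over all of them. The standard error was the log2 fold change divided by the square root of F, and RPKM used effective library sizes. With 2 against 2 libraries an exact permutation test cannot go below p = 0.333. The fit was tested on simulated data. Alternatives were RLE factors, library totals, genes alone, no filter, DESeq2 1.42.0, a block for the replicate number and the omission of each library in turn. The text names the 10 genes, and from each list up to 3 genes with the highest and 3 with the lowest log2 fold change among those called with a mean over 100; further list genes were named after their values were seen, and some list genes are counted but not reported here by name. The 10 genes and the lists were chosen with earlier results of these data known, from general knowledge. Protein sequences were not used here.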

Additional observations from a re-analysis of the deposited data

Results flagged for a closer look

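The 1 entry that names no gene or repeat lies outside every comparison. It took a larger share of the counts in both genistein libraries (0.00314% and 0.00289%) than in both untreated libraries (0.00208% and 0.00222%). What the entry is cannot be told from its label.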

How the results depend on the processing

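The rises of Nrip1, Ppard, Ncoa1 and Ncoa3 passed the threshold in all 10 alternative fits, with log2 fold changes of 1.11 to 1.23, 0.84 to 0.95, 0.68 to 0.88 and 0.39 to 0.53. Esrra, Gper1 and Ppara passed in none, at -0.14 to -0.047, 0.038 to 0.15 and -0.86 to -0.092. The count of partner receptors that rose, 1 for Rxra, became 0 with no filter (log2 fold change 0.072, adjusted p = 0.17), with DESeq2 (0.089, adjusted p = 0.19) and with the replicate block (0.10, adjusted p = 0.051), and it was 0 to 0 when each library was left out. The cause was not tested. The block changed no other call in these lists, and same-numbered libraries deviated with a correlation of -0.0265, which gives no sign that the numbers mark pairs. With library totals alone 14 PPAR targets and 11 other coregulators rose, in place of 12 and 9, while with DESeq2 these counts were 11 and 7 and without untreated 1 they were 12 and 7, through Ncoa7 and Ppargc1a among the coregulators. With library totals the median of all genes was 0.037. Over all genes, 6085 were called higher with library totals, 5436 in the main fit and 4050 with DESeq2. With no filter, the median of the partner receptors was 0.072, in place of -0.46 over the 4 tested, because genes near 0 entered. Foxa1 missed the threshold without untreated 1 (0.99, adjusted p = 0.064) and without genistein 2 (1.09, adjusted p = 0.061), and Plin4 with DESeq2 (adjusted p = 0.081). Depth limits Esr1, Esr2 and Pparg, which no fit here can judge.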

Other observations

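The ratios of corepressor to coactivator transcripts restate the log2 fold changes of 1.16 for Nrip1, 0.46 for Ncoa3 and 0.78 for Ncoa1. Per length, Nrip1 stood at 0.441 and 0.438 times the level of Ncoa3 in the untreated libraries and at 0.693 and 0.738 times in the genistein libraries. Against Ncoa1 it stood at 2.30 and 2.13 times untreated and at 2.87 and 2.89 times with genistein. The ratio of Ncoa3 to Ncoa1 was 5.21 and 4.88 untreated and 4.15 and 3.92 with genistein. These ratios were not tested.

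Among 10393 other protein-coding genes with a mean normalised count over 100, the 3 with log2 levels most like those of Nrip1 over the 4 libraries were Mast4, Inpp5k and Vcan, at Euclidean distances of 0.0135, 0.0345 and 0.0346 between log2 CPM values centred per gene. Mast4 encodes a kinase, Inpp5k an inositol phosphatase and Vcan the matrix proteoglycan versican, and their log2 fold changes were 1.15, 1.16 and 1.15. With 2 libraries in each of 2 groups, this likeness is mostly the size of the difference between the groups.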
